A study of Ovis aries with 26 samples.

Results

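The keratins of simple epithelium are KRT7 and KRT8, which are type II chains, and KRT18 and KRT19, which are type I chains. They were taken by symbol from a table of gene levels in sheep (Ovis aries) oocytes and preimplantation embryos, where these 4 genes are 4 of 30186. The table covers 8 stages in 26 libraries: 2 libraries of mature oocytes (MII), 4 of embryos with 2 cells (2C), 3 of those with 4 cells (4C), 4 with 8 cells (8C) and 3 with 16 cells (16C), 3 of morulae, 3 of early blastocysts (EarlyB) and 4 of expanded blastocysts (ExpB). The embryos came from in vitro fertilization of mature oocytes and were grown in culture medium, with no further treatment given in the labels. Poly(A) RNA was taken from direct lysates and sequenced with Smart-seq2, which amplifies full-length cDNA from small amounts of RNA. The labels state neither how many oocytes or embryos a library holds nor whether replicates come from different animals or cultures. The p-values therefore cover the spread among libraries alone, and that spread may be technical.

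Keratins build intermediate filaments as obligate pairs of a type I and a type II chain, and a chain without a partner is degraded. KRT8 with KRT18 is the basic pair of simple, single-layered epithelia, while KRT7 and KRT19 are added in ducts and in trophoblast. In mammalian embryos these are the first keratins to appear, and they mark the trophectoderm, the outer epithelium of the blastocyst that goes on to form the placenta.

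Levels are FPKM (fragments per kilobase of gene per 1e6 assigned), a per-length unit, so the 4 genes can be set side by side. Differences between stages are given on the log2(FPKM + 1) scale, later stage minus earlier stage, which understates changes of genes near 0. A gene was called higher or lower when its Benjamini-Hochberg adjusted p in limma, over the 15766 genes tested, was under 0.05 and its difference at least 1. Of the 4 keratins, 3 passed the filter of 1 FPKM in at least 2 libraries, which KRT7 did not reach. The libraries held 16.0 to 35.6 reads in units of 1e6, with fewest in EarlyB (16.0 to 19.9) and ExpB (19.3 to 25.4). The summed level of 10 oocyte genes was 6481 to 6909 FPKM in MII oocytes, 392 to 531 in morulae and 3.28 to 13.9 in ExpB. The summed level of 11 trophectoderm genes other than keratins was 16.2 to 23.2 FPKM in MII oocytes, 181 to 222 in morulae, 737 to 793 in the EarlyB libraries and 1526 to 2113 in ExpB. PTGS2 (984 ± 186 FPKM) and DAB2 (624 ± 110 FPKM) carried most of the sum in ExpB, while TEAD4, GATA2, TFAP2C and ATP1B1 had lower means in ExpB than in EarlyB. In whole embryos, more cells of a type and more RNA per cell cannot be told apart.

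KRT8, the type II chain that pairs with KRT18, was the most abundant of the 4 keratins from the morula on. Its level was 1.51, 0 and 2.30 FPKM in the 3 libraries of 16C, 53.0, 84.9 and 65.7 FPKM in the 3 morulae, 1366, 1806 and 1421 FPKM in the 3 EarlyB libraries, and 5424, 2556, 4950.3 and 4324 FPKM in the 4 ExpB libraries. Every morula was thus above every 16C library, every EarlyB library above every morula, and every ExpB library above every EarlyB library. Among all genes of a library, ordered from the highest FPKM, KRT8 ranked 1123 to 1590 in morulae, 60 to 70 in the EarlyB libraries and 14 to 26 in ExpB. It alone took 0.457% to 0.970% of the reads assigned in ExpB.

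KRT18, its type I partner, went from barely detected to abundant over the same stages. It stood at 8.51, 21.0 and 12.2 FPKM in morulae, 575, 699 and 470.4 FPKM in EarlyB, and 1371, 419, 740.3 and 633 FPKM in ExpB. All morulae lay above all 16C libraries, where 1 library had 0.0221 FPKM, worth 1 read, and the others were at 0. The EarlyB libraries lay above the morulae without overlap, whereas the ranges of ExpB and EarlyB overlapped. KRT18 ranked 3092 to 5129 in morulae, 138 to 179 in the EarlyB libraries and 92 to 229 in ExpB.

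KRT19, a type I chain that lacks most of the tail domain, appeared later. Its level was 1.31, 0.997 and 0.0279 FPKM in morulae (50, 42 and 1 reads), 42.8, 17.3 and 10.8 FPKM in EarlyB, and 566, 239, 383 and 279.5 FPKM in ExpB. The morulae overlapped the earlier stages, and their lowest library was below every 2C library. EarlyB and ExpB each lay above the stage before them without overlap. KRT19 ranked 1677 to 4809 in EarlyB and 181 to 375 in ExpB.

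KRT7, the second type II chain, stayed low throughout. It is identified here only by the name of its row. It measured 0.0645, 0 and 0.297 FPKM in morulae, 0.348, 0.295 and 0.446 FPKM in EarlyB, and 0.949, 1.70, 0.605 and 0.651 FPKM in ExpB. Each ExpB library lay above each EarlyB library, while the highest morula lay within the range of EarlyB. In ExpB its level rested on 25 to 73 reads a library.

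**Figure D1:**
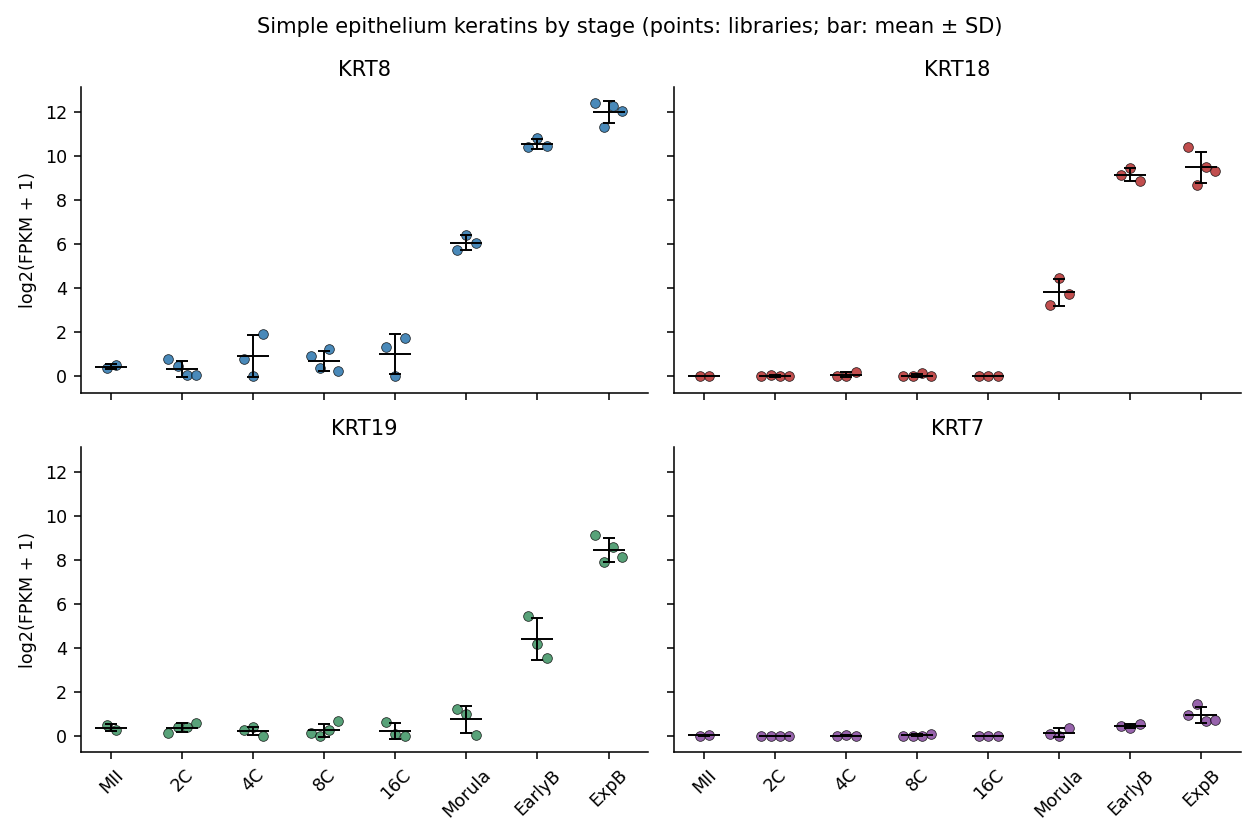
Level of the 4 keratins as log2(FPKM + 1) in each of the 26 libraries, by stage from MII oocytes to expanded blastocysts, with points for libraries and bars for the mean ± SD. KRT8 and KRT18 separate from the earlier stages in morulae and KRT19 in EarlyB, while KRT7 is at most 1.70 FPKM in any library.

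From the MII oocyte to the 16-cell embryo the 4 keratins were near the limit of detection. Over these 16 libraries KRT8 had a median of 0.394 FPKM and a highest value of 2.79 FPKM, in 4C replicate 3, with 693 reads in all and 4 libraries at 1 FPKM or more. KRT19 had a median of 0.211 FPKM and a highest value of 0.596 FPKM, with 174 reads. KRT18 was at 0 in 12 of the 16 libraries and totalled 14 reads, and KRT7 was at 0 in 13 and totalled 8. These early libraries therefore hold traces of KRT8 and KRT19 and hardly any KRT18 or KRT7. At this depth a count of 0 allows up to 3 reads, which is 0.0600 to 0.0784 FPKM for KRT18 and 0.0499 to 0.0652 FPKM for KRT7 in a library, for counting error only. KRT8 varied among replicates of a stage, from 0 to 2.79 FPKM at 4C and from 0 to 2.30 FPKM at 16C. Transcripts of cumulus and granulosa cells, the somatic cells around the oocyte, were present in the same libraries. The 14 markers of that list in the table summed to 4.71 to 9.82 FPKM in ExpB, where the keratins were highest, against 28.7 to 573 FPKM from MII to 16C. In 4C embryos LUM carried most of the sum, at 122 to 289 FPKM. TNFAIP6 was at 2.07, 2.65 and 235 FPKM in rising order, the last in the library with the sum of 573 FPKM. AMH was at 0 at 4C and FSHR was at 4.63 to 6.43 FPKM. The 4C libraries had sums of 573, 159 and 165 FPKM, beside KRT8 levels of 0.748, 0 and 2.79 FPKM. The part of these cells in the early traces was not tested.

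Across the 4 steps between MII and 16C, none of the 3 tested keratins was called in limma. Their differences lay between -0.21 and 0.58, the smallest adjusted p was 0.68, and none reached an unadjusted p under 0.05. Over all tested genes, 4.44% were called higher and 2.01% lower at 2C than in MII oocytes. The shares were 0.00634% and 0% at 4C against 2C, 0.577% and 0.33% at 8C against 4C, and 5.54% and 2.01% at 16C against 8C. The 4C step holds almost no calls at all, so that the count of 0 there is the background.

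Between 16C and the morula, KRT8 and KRT18 rose, 2 of the 3 tested keratins, where 28.1% of all tested genes were called higher and 15% lower. KRT8 averaged 67.8 ± 16.1 FPKM in morulae and 1.27 ± 1.17 FPKM at 16C (SD, n = 3 each), a difference of 5.06 ± 0.42 (SE, limma adjusted p = 1.3e-09). KRT18 averaged 13.9 ± 6.40 FPKM in morulae and had 1 read over all 16C libraries, a difference of 3.80 ± 0.29 (limma adjusted p = 4.2e-10). In order of difference among the 15766 genes, KRT8 was number 28 and KRT18 number 158. This order depends on the pseudocount, since with 0.1 FPKM the difference was 6.93 for KRT18 and 6.52 for KRT8. KRT19 averaged 0.779 ± 0.670 FPKM in morulae and 0.205 ± 0.315 FPKM at 16C and was not called, with a difference of 0.51 and a 95% interval of -0.26 to 1.28 (limma adjusted p = 0.24).

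All 3 tested keratins rose between the morula and EarlyB, where 14.7% of all tested genes were called higher and 12.4% lower. KRT18 had the largest difference of all tested genes, 5.36 ± 0.29 (SE, limma adjusted p = 1.4e-11), with 581 ± 114 FPKM in EarlyB and 13.9 ± 6.40 FPKM in morulae, a ratio of means of 41.9. KRT8 had the next largest, 4.49 ± 0.42 (limma adjusted p = 2e-08), with 1531 ± 240.1 FPKM in EarlyB and 67.8 ± 16.1 FPKM in morulae, a ratio of 22.6. With a pseudocount of 1 FPKM, the genes of the KRT8 and KRT18 pair thus headed the list of this step. KRT19 came at number 27 with 3.65 ± 0.37 (limma adjusted p = 7.5e-08). It had 23.6 ± 16.9 FPKM in EarlyB and 0.779 ± 0.670 FPKM in morulae, a ratio of 30.3, which is above that of KRT8. Under alternatives other than leaving out a library, the difference of KRT19 reached 5.11 and that of KRT8 at most 4.51. The place of KRT8 therefore depends on the setting.

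Between EarlyB and ExpB, KRT19 and KRT8 rose, 2 of the 3 tested keratins, where 4.65% of all tested genes were called higher and 13.1% lower. KRT19 had the larger difference, 4.04 ± 0.35 (limma adjusted p = 1.7e-08), number 4 of all tested genes, with 367 ± 146 FPKM in ExpB (n = 4) and 23.6 ± 16.9 FPKM in EarlyB (n = 3), a ratio of 15.5. KRT8 reached 4314 ± 1256 FPKM in ExpB, against 1531 ± 240.1 FPKM in EarlyB, a difference of 1.45 ± 0.39 (limma adjusted p = 0.0053) and a ratio of 2.82. With a pseudocount of 0.1 FPKM in place of 1, the adjusted p of KRT8 was 0.24. KRT18 was not called, with 791 ± 409 FPKM in ExpB and 581 ± 114 FPKM in EarlyB, a difference of 0.33 with a 95% interval of -0.24 to 0.89 (limma adjusted p = 0.37). Its upper end lies within the KRT8 interval of 0.64 to 2.26.

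Set directly against the morula, ExpB held 3 of 3 tested keratins higher, where 12.1% of all tested genes were called higher and 21.8% lower. The differences were 7.69 ± 0.35 for KRT19, 5.94 ± 0.39 for KRT8 and 5.69 ± 0.27 for KRT18, numbers 2, 7 and 13 of all tested genes, with limma adjusted p-values of 4.7e-14, 2.1e-11 and 1.1e-13. The ExpB and morula libraries of each gene did not overlap. KRT7 could be fitted only when no filter was applied. Its differences then were 0.50 between ExpB and EarlyB (limma adjusted p = 0.0029) and 0.79 between ExpB and Morula (limma adjusted p = 1.5e-05), both under the size of 1 needed for a call. All 4 keratins together took 0.0109% to 0.0183% of the reads in morulae, 0.322% to 0.424% in the EarlyB libraries and 0.549% to 1.24% in ExpB.

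**Figure D2:**
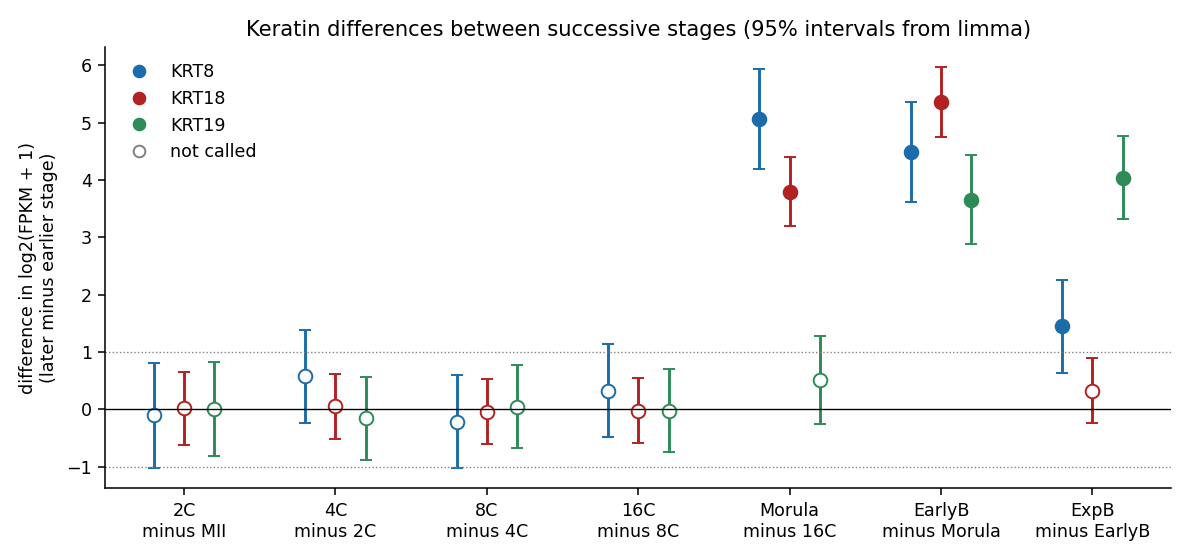
Differences of KRT8, KRT18 and KRT19 between stages on the log2(FPKM + 1) scale, later minus earlier stage, with 95% intervals from limma; filled points were called, open points were not, and dotted lines mark a difference of 1 either way. Calls fall on KRT8 and KRT18 at the Morula step, on all 3 at EarlyB, and on KRT8 and KRT19 at ExpB, with 4.04 for KRT19.

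Because type I and type II chains pair, their levels were compared within each library. The sum of the type II chains KRT7 and KRT8 was 5.40, 3.87 and 5.40 times that of the type I chains KRT18 and KRT19 in morulae, 2.21, 2.52 and 2.95 times in EarlyB, and 2.80, 3.88, 4.41 and 4.74 times in ExpB. Type II RNA exceeded type I RNA in all 10 libraries, and the EarlyB libraries had the lowest ratios as a group, overlapping ExpB. The log2 ratio differed between the 3 stages (exact permutation test of the F statistic over 4200 arrangements, p = 0.0229, Benjamini-Hochberg adjusted p over 3 quantities 0.0343). This rests on few libraries, since the adjusted p passed 0.05 on leaving out Morula 1 (0.0786), Morula 3 (0.0786), EarlyB 1 (0.0964), EarlyB 2 (0.0893), ExpB 2 (0.0696) or ExpB 3 (0.0536). The ratio of KRT8 to KRT18 alone averaged 5.22 ± 1.10 in morulae, 2.66 ± 0.329 in EarlyB and 5.89 ± 1.33 in ExpB.

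Within type I, KRT19 made up 13.4%, 4.54% and 0.228% in morulae, 6.93%, 2.42% and 2.25% in EarlyB, and 29.2%, 36.3%, 34.1% and 30.6% in ExpB. The ExpB shares lay above all others (exact permutation test over the 3 stages, p = 0.00333, adjusted p = 0.01). Without ExpB 2 or ExpB 3 the exact p was 0.025 and the adjusted p was 0.0696 and 0.0536. Within type II, KRT7 made up 0.191 ± 0.233% in morulae, 0.0244 ± 0.00759% in EarlyB and 0.0278 ± 0.0258% in ExpB (exact permutation p = 0.133, adjusted p = 0.133). Without Morula 2, in which KRT7 was at 0, the adjusted p of the exact test was 0.027. KRT8 thus supplied nearly all type II RNA, and a change in the small KRT7 share was not resolved.

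**Figure D3:**
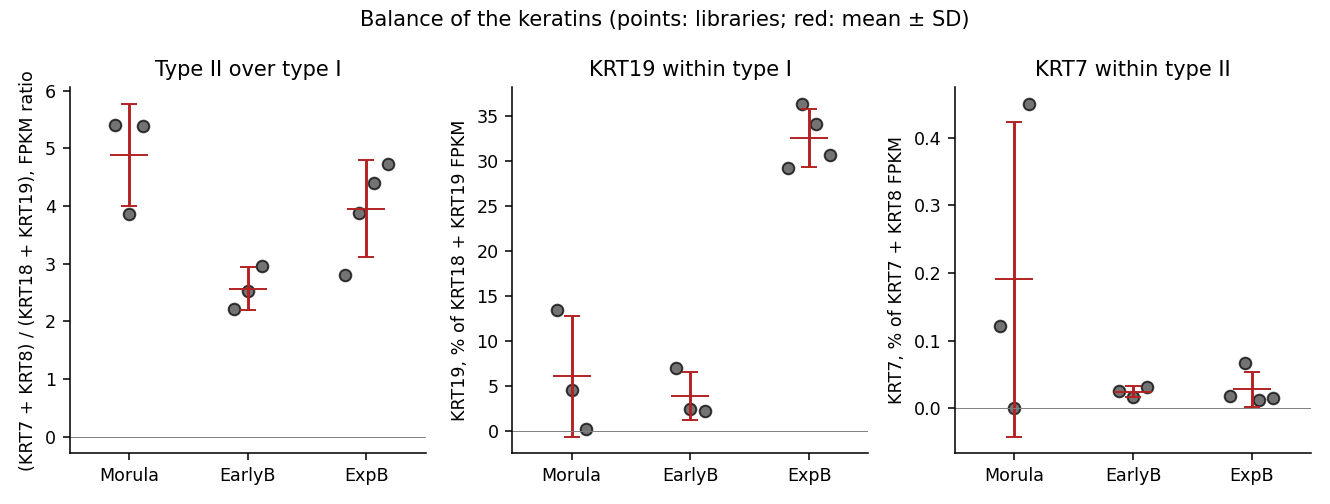
Ratio of type II (KRT7 and KRT8) to type I (KRT18 and KRT19) FPKM, and KRT19 and KRT7 as a percentage of their type, in each library (points) of Morula, EarlyB and ExpB, with the mean ± SD in red. KRT19 is 29.2% to 36.3% of type I in ExpB and at most 13.4% in the other libraries.

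Among the 4 ExpB libraries, ExpB 1 had the highest and ExpB 2 the lowest level of KRT8, KRT18 and KRT19, while ExpB 2 had the highest KRT7. The summed trophectoderm markers were 2113, 1763, 2032 and 1526 FPKM in ExpB 1 to 4, so that their order differed from that of the keratins. The summed inner cell mass markers were 88.7 FPKM in ExpB 2 and 127 to 130.0 FPKM in the other three. Depth was 19.3 to 25.4 reads in units of 1e6 over these libraries. The part of these differences in the keratin values was not tested.

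Over the 26 libraries, log2(FPKM + 1) of KRT8 and KRT18 had a Pearson r of 0.991, against 0.902 for KRT8 with KRT19 and 0.910 for KRT18 with KRT19. These values describe points that share a library and a stage order. The genes most like KRT8 were GDPD2, a glycerophosphodiesterase (r = 0.993), PTGS2, the inducible prostaglandin synthase (0.993), TYRO3, a receptor tyrosine kinase (0.992), MSX2, a homeobox factor (0.992), and LOC101111528 (0.991). PTGS2, which is also on the trophectoderm list, averaged 25.8 ± 12.8 FPKM in morulae, 275 ± 18.1 FPKM in EarlyB and 984 ± 186 FPKM in ExpB. The genes most like KRT18 were TYRO3 (0.995), the amino acid transporter gene SLC7A5 (0.994), LZTS3 (0.994), EPB41L1, a membrane skeleton protein (0.993), and MTFP1, which acts in mitochondrial fission (0.993). Those most like KRT19 were LOC114109223 (0.992), the ligand gene WNT6 (0.992), the semaphorin SEMA4A (0.991), the receptor gene ERBB3 (0.990) and LY6E, which codes for a surface protein (0.990). TYRO3 is on the lists of both KRT8 and KRT18, and no gene of the KRT19 list is on either. LOC114109223 was at 0 in morulae and averaged 15.3 ± 9.35 FPKM in EarlyB and 194 ± 63.9 in ExpB, and ERBB3 averaged 0.142 ± 0.0370 in morulae, 3.86 ± 1.34 in EarlyB and 17.1 ± 0.673 in ExpB.

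KRT8 and KRT18 are direct neighbours on chromosome 3 in the RefSeq gene order of the assembly ARS-UI_Ramb_v3.0, and KRT19 is on chromosome 11. KRT7 was not placed in that order. Next to KRT18 lies EIF4B, a translation initiation factor gene, with stage means of 43.3 FPKM (16C), 105 (Morula), 122 (EarlyB) and 107 (ExpB). On the other side of KRT8 lies KRT78, at a mean of at most 0.110 FPKM in these 4 stages. KRT9 and KRT13, which lie near KRT19, were at means of at most 0.0325 and 0.164 FPKM. KRT15 and KRT14 also lie near KRT19 and have no values under these names. The table alone cannot separate reads of near-identical keratin copies.

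Of 32 other keratins in the table, 21 stayed below 1 FPKM in every library, 4 of these were at 0 throughout, and 8 were tested. In blastocysts none of the 32 exceeded 13.7 FPKM, against 2556 FPKM or more for KRT8 in ExpB. KRT5, the type II chain of basal cells in stratified epithelium, averaged 13.3 ± 3.11 FPKM at 8C and 5.71 ± 1.15 in MII oocytes. It fell to 0.572 ± 0.391 FPKM in ExpB, against 5.12 ± 1.86 in EarlyB (difference -1.95, limma adjusted p = 2.1e-05). KRT25, a type I chain known from the inner root sheath of the hair follicle, averaged 12.3 ± 2.14 FPKM at 4C and 8.19 ± 0.384 in MII oocytes. It fell to 0.152 ± 0.135 FPKM in morulae, against 6.41 ± 5.20 at 16C (difference -2.34, limma adjusted p = 5.2e-05), and was at 0 in every ExpB library. These 2 keratins were present where the simple keratins were near 0. KRT5 was also present beside KRT8 in morulae, at 5.94 ± 2.58 FPKM, and in EarlyB. It was not called in morulae against 16C or in EarlyB against morulae (limma adjusted p = 0.53 and 0.74).

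KRT222 and KRT10 peaked in between. KRT222, a keratin-like gene, rose at 16C, with 8.10 ± 5.02 FPKM against 0.340 ± 0.514 at 8C (difference 2.61, limma adjusted p = 4.1e-06), and fell to 1.61 ± 0.668 FPKM in morulae (difference -1.61, limma adjusted p = 0.00036). When only the 2 stages entered the fit, the limma adjusted p was 0.074 at 16C and 0.072 in morulae. KRT10, the type I chain of differentiating epidermis, rose to 23.5 ± 3.23 FPKM in morulae, against 2.07 ± 2.67 at 16C (difference 3.33, limma adjusted p = 2.7e-08). It then fell to 4.13 ± 0.794 FPKM in ExpB, against 12.9 ± 1.32 in EarlyB (difference -1.45, limma adjusted p = 0.00099). Of the 8 tested others, 1 was called higher and 3 lower in morulae than at 16C, 0 higher and 1 lower in EarlyB than in morulae, and 1 higher and 2 lower in ExpB than in EarlyB. Over all tested genes, 28.1% were higher and 15% lower in morulae, 14.7% and 12.4% in EarlyB, and 4.65% and 13.1% in ExpB. The gene called higher in ExpB was KRT1, at 3.42 ± 1.91 FPKM against 0.582 ± 0.504 in EarlyB (difference 1.42, limma adjusted p = 8.4e-05).

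**Figure D4:**
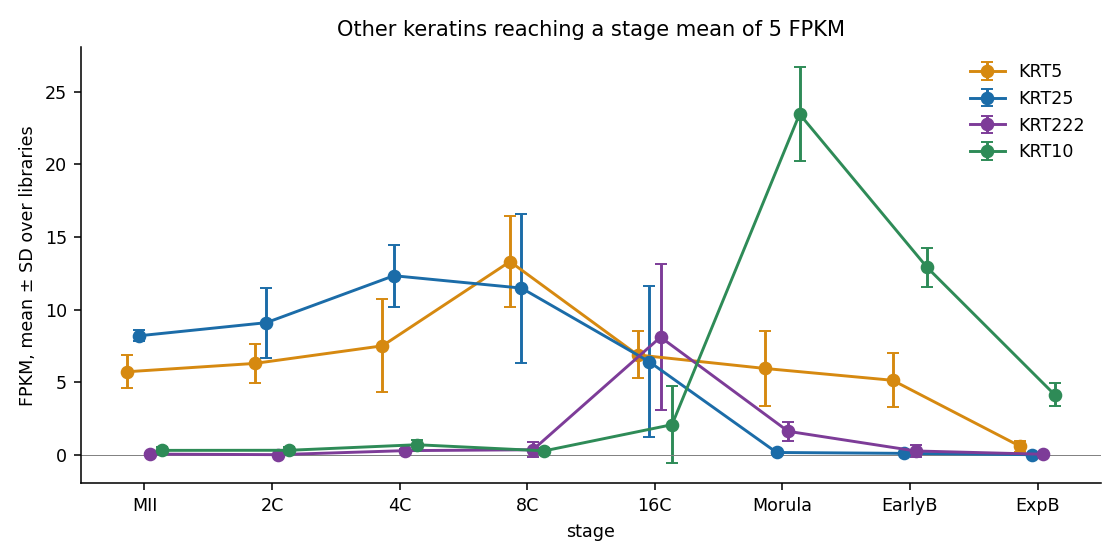
FPKM of KRT5, KRT25, KRT222 and KRT10 by stage, as the mean ± SD over the libraries of each stage. KRT5 and KRT25 are highest between MII and 8C, KRT222 at 16C and KRT10 in morulae.

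Desmosomes anchor keratin filaments at the cell border, and plakins crosslink them. Means of this and the following lists are ± SD over 3 libraries, or 4 in ExpB. Of 12 tested genes of this kind, 3 were called higher and 1 lower in morulae than at 16C, 3 and 0 in EarlyB against morulae, and 5 and 1 in ExpB against EarlyB. Over all tested genes the shares called higher and lower were 28.1% and 15%, 14.7% and 12.4%, and 4.65% and 13.1% in these steps, so that the count in morulae was near the background. Their median difference was 0.40, 0.54 and -0.13 in these steps, beside 0.32, 0.03 and -0.30 over all tested genes. DSP, JUP and PERP were not analysed here. The desmosomal cadherin DSC2 rose at both blastocyst steps, with 6.80 ± 0.940 FPKM in EarlyB against 0.634 ± 0.347 in morulae (difference 2.27, limma adjusted p = 5.6e-10), and with 34.9 ± 5.54 FPKM in ExpB (difference 2.20 from EarlyB, limma adjusted p = 9.6e-10). The cadherin DSG3 rose in ExpB, to 8.71 ± 2.43 FPKM against 1.10 ± 0.221 in EarlyB (difference 2.17, limma adjusted p = 2.6e-08). PKP2, a plaque protein that links cadherins to the filament anchor, rose to 4.72 ± 1.42 FPKM in morulae against 0.472 ± 0.428 at 16C (difference 1.97) and to 25.2 ± 3.73 FPKM in ExpB against 10.3 ± 3.04 in EarlyB (difference 1.23). PKP2 in ExpB was not called with a pseudocount of 0.1 (limma adjusted p = 0.066). DSC3 rose in morulae (1.21, but 0.74 and not called with quantile scaling), and the crosslinker MACF1 rose in EarlyB (1.32). DSG2 was called higher in EarlyB (1.12, limma adjusted p = 0.037), but not without Morula 2 (0.66, limma adjusted p = 0.24), and it also lost the call under 7 other alternatives. ITGA6, the alpha chain of the hemidesmosomal integrin, fell to 4.10 ± 0.865 FPKM in morulae, against 19.2 ± 4.07 at 16C (difference -1.98). It was called higher again in ExpB than in EarlyB (difference 1.01, limma adjusted p = 7.1e-05).

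Proteins that bind, fold or modify simple keratins were 19 tested genes. Counts were 5 higher and 0 lower in morulae against 16C, 7 and 3 in EarlyB against morulae, and 2 and 4 in ExpB against EarlyB, with median differences of 0.45, 0.69 and -0.30. Of all tested genes, 28.1% were called higher and 15% lower in morulae, 14.7% and 12.4% in EarlyB, and 4.65% and 13.1% in ExpB. The count higher in morulae was near that background. Median differences of all tested genes were 0.32, 0.03 and -0.30, so that the list median in ExpB was near that of all genes. FAM83H, which recruits casein kinase to keratin filaments, rose to 3.51 ± 1.28 FPKM in morulae, against 0.0302 ± 0.0376 at 16C (limma adjusted p = 3.2e-10). TGM2, a crosslinking transglutaminase, rose to 4.90 ± 0.878 FPKM in EarlyB, against 0.577 ± 0.323 in morulae (difference 1.91). PNN, a desmosome-associated and nuclear protein, also rose in EarlyB (1.79), and the caspase gene CASP6 (1.54) and the chaperone gene HSPA8 (1.29) rose in morulae. At the step after its rise, PNN was called lower in ExpB (-1.03) and CASP6 in EarlyB (-1.33). HSPA8 was not called on the TPM scale (0.91) or with quantile scaling (0.82). YWHAE and YWHAZ, 14-3-3 proteins of the family that binds phosphorylated KRT18, rose in ExpB: YWHAE had 1219 ± 251 FPKM against 378 ± 85.9 in EarlyB (difference 1.69), and YWHAZ 63.3 ± 11.6 against 21.2 ± 1.93 (difference 1.52). At the step before, YWHAE fell to 378 ± 85.9 FPKM in EarlyB, against 912 ± 102 FPKM in morulae (difference -1.29), and YWHAZ was not called (-0.85). OGT, which adds GlcNAc to proteins, rose in EarlyB (1.20) and fell in ExpB (-1.84), with means of 27.0 FPKM in morulae, 65.3 in EarlyB and 17.2 in ExpB.

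Transcription factors known from simple keratin genes, trophectoderm or epithelium numbered 27 tested genes, of which 6 are also on the trophectoderm list (CDX2, GATA2, GATA3, TFAP2A, TFAP2C and TEAD4). Counts were 6 higher and 3 lower in morulae against 16C, 10 and 2 in EarlyB against morulae, and 4 and 7 in ExpB against EarlyB, with median differences of 0.27, 0.29 and -0.42. All tested genes had 28.1% called higher and 15% lower in morulae, 14.7% and 12.4% in EarlyB, and 4.65% and 13.1% in ExpB. The count in morulae was near that background. The medians over all tested genes were 0.32, 0.03 and -0.30. KLF5 rose to 102 ± 42.7 FPKM in morulae, against 10.5 ± 4.44 at 16C (difference 3.15, limma adjusted p = 7.3e-10). TEAD4, a trophectoderm factor in mice, rose to 7.18 ± 0.963 FPKM in morulae (difference 2.67) and fell to 2.92 ± 1.06 in ExpB, against 12.1 ± 1.58 in EarlyB (difference -1.77). GRHL3, an epithelial factor, fell to 1.77 ± 0.178 FPKM in morulae, against 10.2 ± 1.88 at 16C (limma adjusted p = 1.3e-06), and rose to 10.6 ± 3.39 FPKM in EarlyB (difference 2.03 from morulae). In EarlyB, GATA2 rose to 14.9 ± 4.26 FPKM against 0.611 ± 0.271 in morulae (3.28), GATA3 to 36.5 ± 5.31 against 4.30 ± 1.37 (2.84), and the epithelial factor ELF3 to 23.7 ± 3.08 against 2.93 ± 2.04 (2.77). In ExpB, TFAP2A rose to 6.62 ± 1.84 FPKM against 0.668 ± 0.403 in EarlyB (2.19), while KLF4 fell to 10.8 ± 2.07 against 55.1 ± 6.40 (-2.26).

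Other intermediate filament genes numbered 11 tested, with 2 higher and 2 lower in morulae against 16C, 1 and 1 in EarlyB against morulae, and 0 and 1 in ExpB against EarlyB. The shares over all tested genes were 28.1% and 15%, 14.7% and 12.4%, and 4.65% and 13.1%, and no count of the list stood far above them. LMNA, which codes for the nuclear lamins A and C, rose to 24.6 ± 0.982 FPKM in EarlyB, against 6.04 ± 4.50 in morulae (difference 2.05, limma adjusted p = 7.1e-06). The neurofilament gene NEFL fell to 3.83 ± 0.790 FPKM in EarlyB, against 13.7 ± 2.16 in morulae (difference -1.61), and again in ExpB (-1.35, but -0.90 and not called with quantile scaling). SYNC rose in morulae (1.41), and NEFM (-1.19) and SYNM (-1.10) fell there. SYNC was not called with quantile scaling (0.90), nor SYNM without 16C 2 (-0.83).

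**Figure D5:**
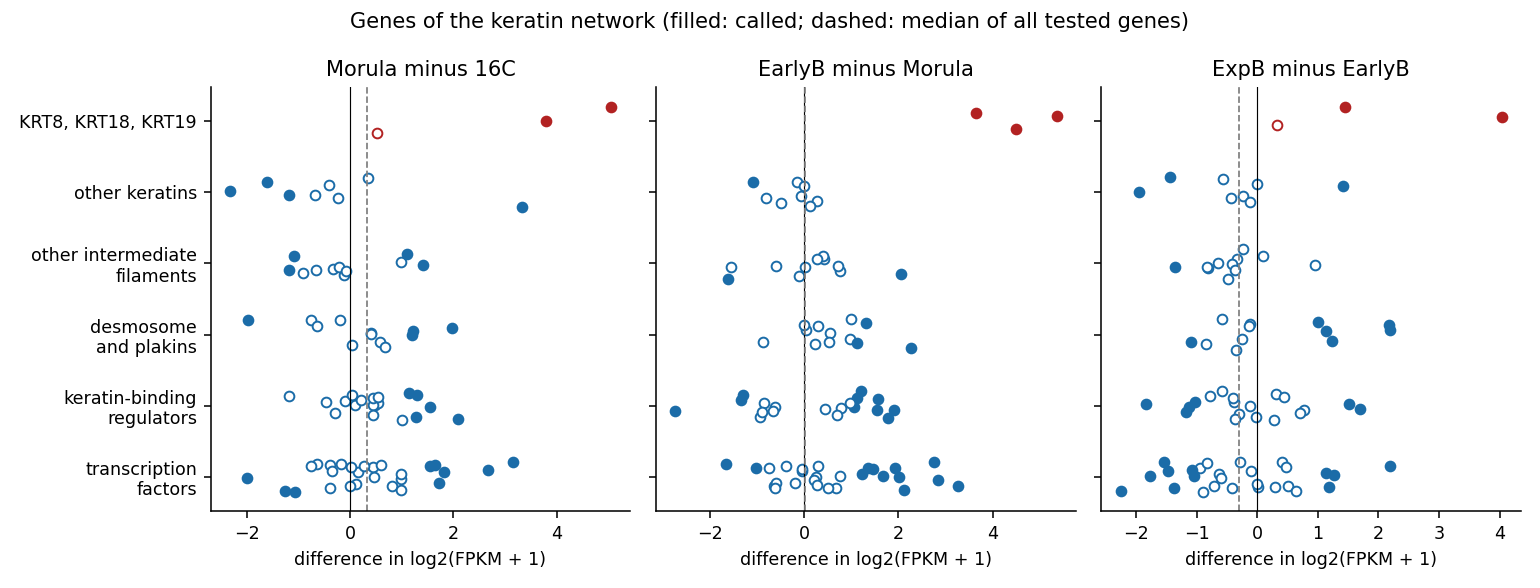
Differences on the log2(FPKM + 1) scale, later minus earlier stage, of each tested gene of the keratin network lists beside KRT8, KRT18 and KRT19 at the Morula, EarlyB and ExpB steps, with called genes filled and the median of all tested genes as a dashed line. Single genes of the lists reach 3.33 (KRT10), 3.15 (KLF5) and 3.28 (GATA2), and KRT18 reaches 5.36 in EarlyB.

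Markers of other cells that a sample could hold were summed in each library. Oviduct and ciliated epithelium genes, 6 in all, summed to 16.0 to 21.1 FPKM in morulae, 6.69 to 10.3 in the EarlyB libraries and 3.10 to 7.83 in ExpB. Sperm genes summed to at most 0.661 FPKM up to 16C, 9.25 to 12.9 in morulae, 8.57 to 11.1 in the EarlyB libraries and 2.49 to 4.35 in ExpB. Blood cell genes summed to 11.5 to 23.7 FPKM in morulae, 5.91 to 9.97 in the EarlyB libraries and 1.49 to 4.11 in ExpB. For inner cell mass genes the sums were 106 to 153 FPKM in morulae, 136 to 147 in the EarlyB libraries and 88.7 to 130.0 in ExpB. Genes of that list went both ways. KLF17, PRDM14, DPPA4 and SOX2 had lower means in ExpB than in morulae, with 0.752 against 60.7 FPKM for KLF17. POU5F1, NANOG, ESRRB, UTF1, TDGF1 and FGF4 had higher means, with 35.3 against 16.2 FPKM for POU5F1. Primitive endoderm genes summed to 23.0 to 34.6, 79.1 to 84.7 and 93.6 to 112 FPKM in the same stages. Cumulus and granulosa genes summed to 16.0 to 49.7 FPKM in morulae and 7.53 to 16.4 in the EarlyB libraries. From the morula to ExpB, where KRT8 and KRT19 were highest, the trophectoderm and primitive endoderm sums were higher. The oviduct, sperm, blood, cumulus and oocyte sums were lower. Few genes carried the sperm, oviduct and blood sums in morulae, with means of 9.02 FPKM for PRM2, 9.66 for MSX1, 8.13 for CD68 and 5.09 for LYZ. MSX1 was at 53.3 FPKM in MII oocytes. TNP1, a sperm gene, averaged 0.761 FPKM in morulae and 1.78 in ExpB. PTPRC and CD14 of the blood list were at most 0.575 FPKM in any library. Whether such cells were present was not tested.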

How the data were processed

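The authors deposited FPKM per gene and library. The submitters' processing notes name HISAT2 2.1.0, featureCounts 2.0.1, SAMtools 1.9 and fastp 0.23.4. Genome build, annotation and strand setting were not given in the sources used here. Reads of near-identical copies or overlapping antisense genes could not be separated, and no coordinates are given here. Depth was recovered from the deposited FPKM: low values of small RNA genes are multiples of what 1 read gives (99.7% to 100.0% whole within 0.05 reads, for values of up to 20 reads). Reads of Smart-seq2 carry no molecular identifiers.

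The fit used log2(FPKM + 1) in limma 3.58.1 (R 4.3.3), with 8 stage means over all 26 libraries and an intensity trend, for genes at 1 FPKM or more in at least 2 libraries (15766). Calls needed a Benjamini-Hochberg adjusted p under 0.05 within a contrast and a difference of at least 1. The fit was tested on simulated data. Keratin ratios used an exact permutation test of F over the 3 latest stages. Alternatives were the pseudocount, filters, TPM, median-ratio and quantile scaling, a replicate block, 2-stage fits, no variance trend and leaving out each library. The genes named were the 4 keratins, other keratins with a stage mean of at least 5 FPKM, the 3 largest calls of each keratin-network list at each of the 3 latest steps, and the 5 genes most like each keratin. A gene that this rule names is not reported here. The keratins and the lists were chosen with earlier results of these data known.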

Additional observations from a re-analysis of the deposited data

Results flagged for a closer look

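Of 25 groups of 4 libraries that were examined, 7 held a library farther from the others than Dixon's 95% limit. In 5 of the 7 the other libraries were all at 0, so that any read in 1 library passes the limit, and the rate of about 1 in 20 that chance gives does not apply to them. KRT18 was at 0.0441 FPKM in 1 of the 2C libraries and at 0.0925 FPKM in 1 of the 8C libraries, worth 2 and 4 reads, with the others of the stage at 0. KRT7 was at 0.0697 FPKM (4 reads) in 1 of the 8C libraries and at 0 in the rest. KRT222 was at 0.0102 FPKM in 1 of the 2C libraries and at 0.116 FPKM in 1 of the ExpB libraries, with the others at 0, and at 1.11 FPKM in 1 of the 8C libraries. KRT7 made up 0.0664% of type II keratin in ExpB 2, above the other ExpB libraries, in the library with the lowest KRT8 and the highest KRT7 of its stage.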

How the results depend on the processing

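Of 844 recomputed keratin differences, 824 kept their direction and side of the threshold. Many of the 844 left out a library of a stage outside the contrast. Such a step cannot change the difference and can move only its p-value, so this share is high by construction. Every call from the morula on held under all alternatives run, except that KRT8 in ExpB against EarlyB was not called with a pseudocount of 0.1 (1.45, limma adjusted p = 0.24). Reversals touched early steps in which no keratin was called. KRT8 at 8C against 4C was 0.0327 with a pseudocount of 0.1. KRT19 at 2C against MII was -0.0414 with that pseudocount, -0.0625 with median-ratio and -0.137 with quantile scaling. Leaving out 1 library gave -0.669 to 0.291 (8C against 4C) and -0.0296 to 0.831 (16C against 8C) for KRT8. For KRT18 it gave -0.0156 to 0.0927 (4C against 2C), -0.0764 to 0.0319 (8C against 4C) and -0.0320 to 0.0105 (16C against 8C). For KRT19 it gave -0.107 to 0.117 (2C against MII), -0.0946 to 0.13 (8C against 4C) and -0.232 to 0.109 (16C against 8C). The cause was not tested. For the type II to type I ratio the exact p over libraries left out was between 0.0190 and 0.0643, for the KRT19 share between 0.00238 and 0.025, and for the KRT7 share between 0.0270 and 0.653. A pseudocount of 1 FPKM gave an exact p of 0.00333 for the KRT7 share. KRT7 was at most 1.70 FPKM in these libraries, so that with this pseudocount its share depends largely on the level of KRT8. That p-value therefore cannot decide whether KRT7 itself changed.

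With the replicate number as a block, KRT19 at 16C against 8C was 0.0066, KRT8 in ExpB against EarlyB was 1.52 (limma adjusted p = 0.0032), and no call of a keratin changed. The 80 pairs of libraries of the same number had correlations of -0.146 to 0.396 (median 0.00443), and 10 of 26 libraries correlated best with their own number, so the numbers were not taken to pair the samples.

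Scaling moved the median of all tested genes from 0.32 to 0.18 (TPM), 0.19 (median-ratio) and -0.01 (quantile) for morulae against 16C, and from -0.30 to -0.33, -0.10 and -0.01 for ExpB against EarlyB. Calls for ExpB against EarlyB were 733 higher and 2060 lower, but 1173 and 977 with median-ratio and 1256 and 1049 with quantile scaling. For morulae against 16C they were 4437 and 2364, but 4268 and 3501 on the TPM scale and 3054 and 3263 with quantile scaling. For ExpB against morulae they were 1903 and 3436, but 2345 and 2589 with median-ratio and 2495 and 2474 with quantile scaling. The keratin list counts stayed within 1.5 times in 850 of 900 recomputations, many of which left out a library outside the contrast. Among those that moved further were desmosome genes higher in morulae (3, range 1 to 7), keratin-binding genes higher in morulae (5, range 2 to 9) and transcription factors lower in morulae (3, range 2 to 5). Of 44 named calls in other genes, 11 were lost under at least 1 alternative and 0 reversed, DSG2 in EarlyB (without Morula 2, limma adjusted p = 0.24) and KRT222 among them. Depth limits what can be said of KRT7 and KRT18 before the morula, where 8 and 14 reads were seen.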
